A study of Mus musculus with 8 samples.

Results

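The respiratory chain genes of both genomes were followed in single cells of mouse tumors, in each cell class and library. They were taken as the gene symbols present in all 8 deposited matrices that name the mitochondrially encoded subunits (mt-Nd, mt-Co, mt-Cytb and mt-Atp), the Nduf, Uqcr and Atp5 families, Sdha to Sdhd, and the Cox4 to Cox8 families. The rule took 103 of the 12962 symbols shared by the 8 matrices, of which 13 are mitochondrially encoded and 90 are nuclear-encoded. By complex, there were 7 mitochondrial and 36 nuclear subunits of complex I, 8 complex I assembly factors (Ndufaf), 4 nuclear subunits of complex II, 1 mitochondrial and 8 nuclear subunits of complex III, 3 mitochondrial and 17 nuclear members of complex IV, and 2 mitochondrial and 15 nuclear subunits of complex V. The remaining 2 were the coupling factor Atp5s and the supercomplex factor Cox7a2l. In the GENCODE M21 annotation of mm10, 102 of the 103 symbols were found (Atp5o.1 was not).

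The 8 tumors were grown subcutaneously from MB49, a urothelial carcinoma line of a male C57BL/6 mouse. Hosts were C57BL/6 mice of the genotype UbcreERT2/+;Atg7+/+ (wild type, libraries 1, 2, 5 and 6) or UbcreERT2/+;Atg7f/f (Atg7-deleted, libraries 3, 4, 7 and 8). UbcreERT2 is a ubiquitously expressed Cre recombinase that tamoxifen activates, and every host, wild type included, carried it and received tamoxifen for 4 days. Cells were injected at 2 sites per mouse 1 week after tamoxifen, and tumors were taken 3 weeks after injection. Atg7 encodes an enzyme needed to form autophagosomes, and only host cells carry the deletion, so malignant cells differ between the genotypes by their host and not by their own Atg7. Which tumors came from the same mouse is not given, so a pair may share an animal, and p-values measure only the spread between these libraries.

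The respiratory chain passes electrons from NADH (complex I) and succinate (complex II) through complexes III and IV to oxygen, and the proton gradient it builds drives ATP synthase (complex V). All of these complexes except complex II are built from subunits of both genomes. Mitochondrial DNA is transcribed from both of its strands as long RNAs that are cut into single messages, while the nuclear subunits are transcribed one by one and imported as proteins. Autophagosomes remove damaged mitochondria (mitophagy), which is how Atg7 bears on these organelles.

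The deposited matrices held 29496 cells, with 4371773 (library 7) to 59235799 (library 6) UMIs per library. Levels are given as UMIs per 10000 UMIs of a cell, averaged with equal weight over the cells that a library has in a class. They are not divided by gene length, so a gene is compared across classes and libraries and not with other genes. Clustering without the 103 genes gave 10 named classes and 1 large unnamed cluster of 3774 cells that carried monocyte/macrophage markers, called the unnamed myeloid cluster below. Malignant-like cells were named from a marker list in which Krt8, Krt18, Krt19, Wfdc2 and Msln were found in every library. Epcam was at or near 0 in every library, and Krt5 and Upk1b were not listed. Krt7 was at 0 to 0.00257 UMIs per 10000 under wild-type hosts, and at 0.35, 0.0945, 0 and 0.0477 in libraries 3, 4, 7 and 8 (deleted). Sprr1a was at 0.493 to 0.985 under wild-type hosts and at 0 to 0.371 under deleted hosts. In cells outside the malignant-like class, Atg7 stood at 0.435, 0.360, 0.137 and 0.183 UMIs per 10000 for libraries 1, 2, 5 and 6 (wild type), against 0.0975, 0.151, 0.0705 and 0.308 for libraries 3, 4, 7 and 8 (deleted), so the genotypes overlapped. Reads from outside the deleted part of the gene would still be counted, so these levels check the labels poorly.

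Libraries 1 to 4 and libraries 5 to 8 formed 2 sets by their cell barcodes. Pairs of libraries within the second set shared 7 to 46 barcodes, pairs within the first set shared 0 to 5, and pairs across the sets shared 0 or 1. The labels name 1 kit for all libraries and do not mention such sets. Each set holds 2 wild-type and 2 deleted libraries, so genotype comparisons can be repeated within it. The sets differed in how mitochondrial UMIs were divided among genes, among them mt-Nd3 and mt-Co1, which share no bases with another mitochondrially encoded member. Of the 4 stretches where spans of mitochondrial genes overlap, 2 are shown, those shared by a pair of genes of one complex on the same strand. Both are read from the mm10 transcripts of GENCODE M21 on the plus strand, with the bases shared by both genes in capitals. The first, chrM:7897-7999, shares 43 bases between mt-Atp8 and mt-Atp6, which encode subunits of complex V, and the second, chrM:10137-10203, shares 7 bases between mt-Nd4l and mt-Nd4, which encode subunits of complex I.
end of mt-Atp8 into mt-Atp6: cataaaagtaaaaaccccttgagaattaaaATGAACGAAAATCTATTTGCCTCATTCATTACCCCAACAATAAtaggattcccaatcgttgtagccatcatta
end of mt-Nd4l into mt-Nd4: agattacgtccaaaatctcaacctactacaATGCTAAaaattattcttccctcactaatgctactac

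The split of mitochondrial UMIs between mt-Atp6 and mt-Atp8 separated the barcode sets in every class. Over the class and library values of libraries 1 to 4 (30 values), mt-Atp6 took 18.4% to 25.5% of the mitochondrially encoded UMIs, and over those of libraries 5 to 8 (31 values) it took 3.77% to 8.92%. The overlapping gene mt-Atp8 went the other way, from 0.332% to 1.495% in libraries 1 to 4 and from 1.81% to 15.1% in libraries 5 to 8. mt-Nd3, a small subunit of complex I, took 1.02% to 2.03% in the first set and 0% to 0.977% in the second. These 3 genes did not overlap between the sets. mt-Co1, the catalytic subunit of complex IV, had a median share of 15.8% in the first set and 31.2% in the second, while mt-Co3 had 18.9% and 10.6%, both with overlap. mt-Nd4l had a median of 0.782% and 3.14%. What sets the libraries apart was not tested. Where reads of a stretch shared by 2 genes were assigned is not given in the sources used here, so the levels of mt-Atp6, mt-Atp8, mt-Nd4l and mt-Nd4 are uncertain. mt-Nd6 lies on the minus strand, opposite to the other 12, and shares 14 bases with mt-Nd5, while mt-Atp6 and mt-Co3 share 1 base.

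**Figure D1:**
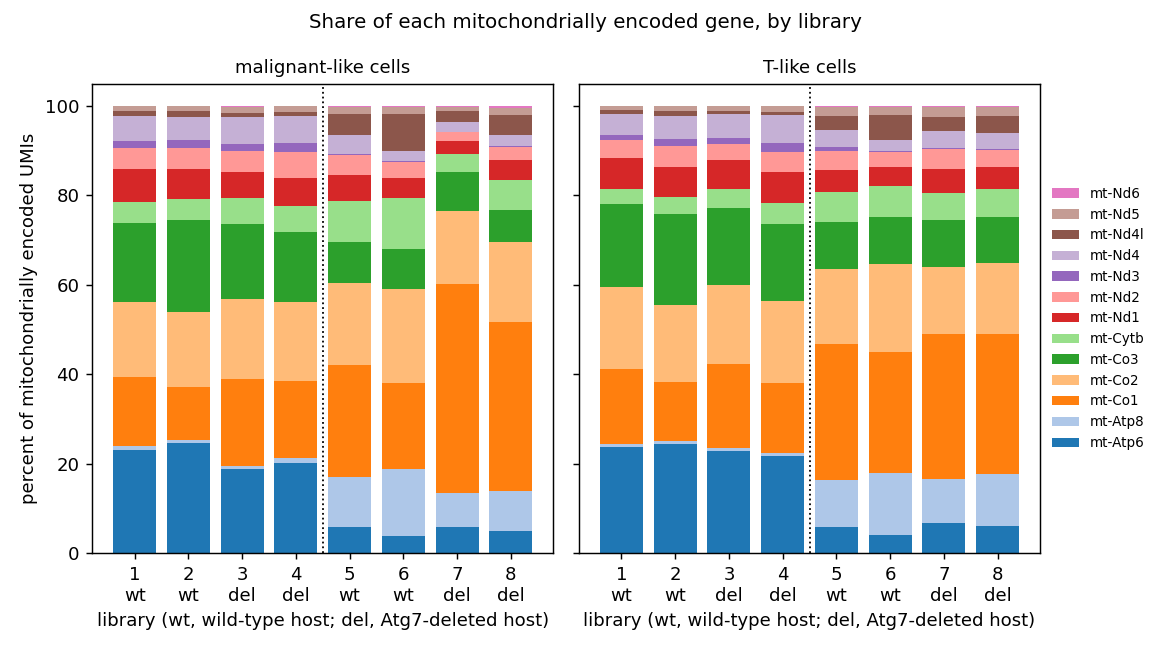
Percent of mitochondrially encoded UMIs (y axis) taken by each of the 13 genes (stacked colors) in libraries 1 to 8 (x axis), in malignant-like cells (left) and T-like cells (right). The dotted line divides libraries 1 to 4 from 5 to 8, between which mt-Atp6 shrinks and mt-Atp8 and mt-Co1 widen in both classes and both genotypes.

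Among the 8 classes compared between genotypes, neutrophil-like cells had the lowest summed levels of both genomes in 8 of 8 libraries. Summed over the 13 mitochondrially encoded genes, they held 138 ± 76.7 UMIs per 10000 (SD, n = 8), against 328 ± 62.1 in the unnamed myeloid cluster (n = 8), 330.0 ± 64.97 in dendritic-like (n = 7), 343 ± 88.4 in monocyte/macrophage-like (n = 7), 425 ± 61.2 in NK-like (n = 7), 435 ± 153 in malignant-like (n = 8), 437 ± 57.8 in T-like (n = 8) and 439 ± 114 in fibroblast-like cells (n = 8). Apart from the neutrophil-like class, neighbors in this order lay within their spread. Summed over the 90 nuclear-encoded genes, the order ran from neutrophil-like (61.1 ± 6.12, SD, n = 8) through monocyte/macrophage-like (143 ± 19.6, n = 7), fibroblast-like (152 ± 44.4, n = 8), NK-like (184 ± 30.1, n = 7), the unnamed myeloid cluster (184 ± 13.8, n = 8), dendritic-like (188 ± 28.4, n = 7) and T-like (191 ± 34.0, n = 8) to malignant-like cells (221 ± 34.7, n = 8). Malignant-like cells had the highest nuclear sum in 6 of 8 libraries. The log2 ratio of the mitochondrial to the nuclear sum ran from 0.80 ± 0.49 in dendritic-like to 1.54 ± 0.69 in fibroblast-like cells. Median UMIs per cell also differed between classes, from 662 to 1867 in neutrophil-like cells across libraries and from 2112 to 16412 in malignant-like cells.

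**Figure D2:**
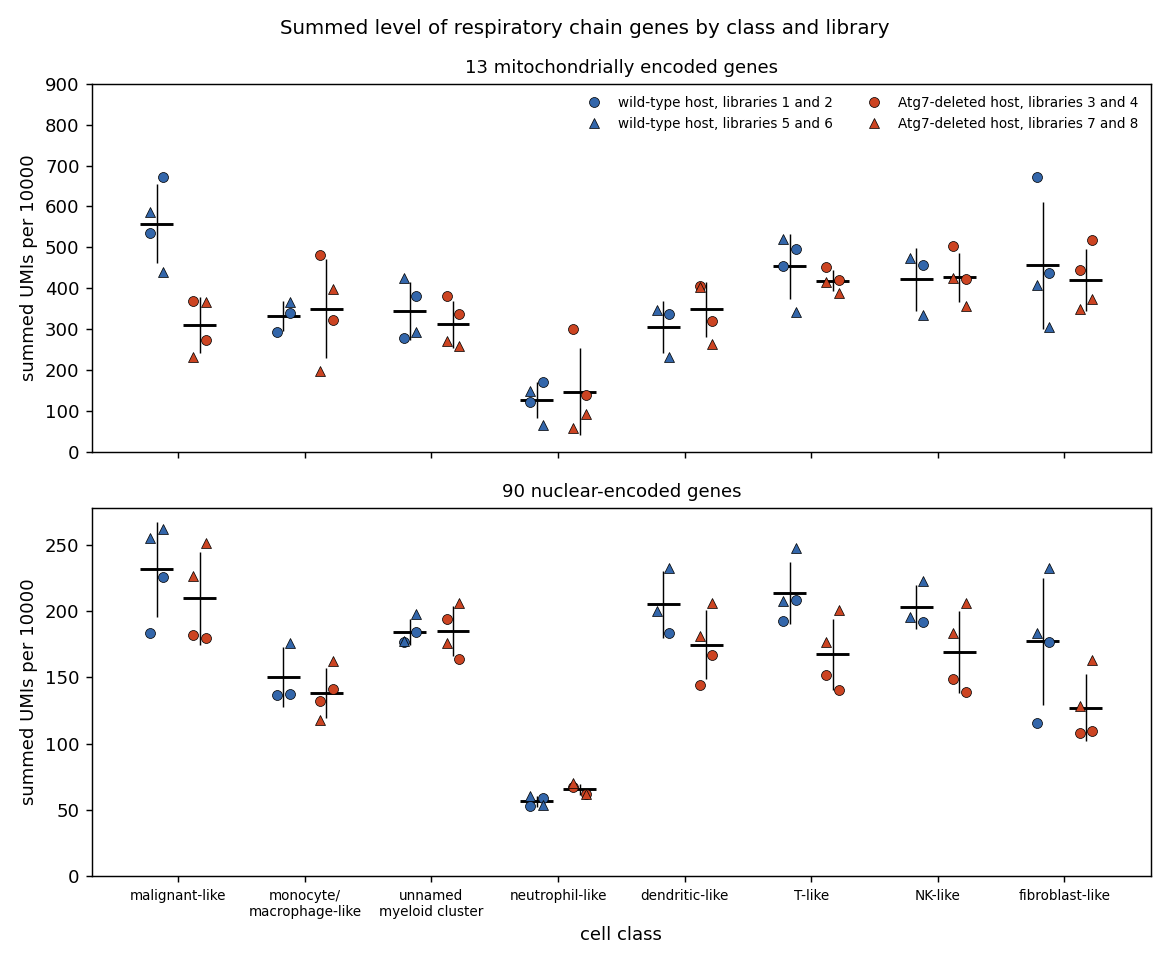
Summed UMIs per 10000 (y axis) of the 13 mitochondrially encoded genes (top) and the 90 nuclear-encoded genes (bottom) in 8 classes (x axis); each point is a library, the horizontal line is the mean of each genotype and the vertical line its SD. In malignant-like cells every deleted library lies below every wild-type library in the top panel, while the genotypes overlap in the bottom panel.

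The most abundant nuclear-encoded members, 2 for each complex, followed the same low point in most cases among these 8 classes. Cox8a, a small subunit of complex IV, ran from 6.53 UMIs per 10000 in fibroblast-like to 17.8 in malignant-like cells, and Cox4i1, another complex IV subunit, from 2.35 in neutrophil-like to 8.70 in NK-like cells. Of complex V, Atp5e (epsilon subunit) ran from 3.11 in neutrophil-like to 10.0 in dendritic-like cells and Atp5l (subunit g) from 4.03 in neutrophil-like cells to 8.48 in the unnamed myeloid cluster. Uqcrh, the hinge protein of complex III, ran from 1.69 in neutrophil-like to 8.89 in T-like cells, and Uqcrq, also of complex III, from 1.99 in neutrophil-like to 6.46 in malignant-like cells. Of complex I, Ndufa2 ran from 1.33 in neutrophil-like to 4.14 in malignant-like cells, and Ndufa7 from 2.08 in monocyte/macrophage-like to 3.94 in malignant-like cells. Of complex II, Sdhd (membrane anchor) ran from 0.689 in NK-like to 1.53 in malignant-like cells, and Sdhb (iron-sulfur subunit) from 0.287 in neutrophil-like to 1.08 in T-like cells. Neutrophil-like cells were lowest for 7 of these 10 genes.

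Upstream of nuclear-encoded members, short motifs known to bind NRF1, ETS factors such as GABP, and YY1 were searched on both strands. These are regulators long tied to respiratory genes. Windows from 250 bases before to 50 bases after the start were taken from RefSeq (GRCm38.p6) for 72 of the 90 nuclear-encoded members and for 27025 genes in all. The exact NRF1 palindrome was in 9.72% of the members' windows (7) and 0.977% of all windows. With its central base free, which includes the exact form, it was in 23.6% (17) and 4.78%. CCGGAAG (ETS) was in 23.6% (17) and 9.12%, and AAGATGGC (YY1) was in 12.5% (9) and 2.88%. In all, 51.4% of the members' windows (37) and 15.2% of all windows held at least 1 of the 3 kinds. One window of each kind is shown, chosen from members whose levels are given in the text, with the motif in capitals: Atp5g2 (subunit c of complex V, chr15:102670998-102671297, minus strand, NRF1), Cox8a (chr19:7217567-7217866, minus strand, 2 ETS matches read on the other strand) and Atp5j2 (subunit f of complex V, chr5:145191492-145191791, minus strand, YY1). A match is a description of letters and not a site of binding.
Atp5g2: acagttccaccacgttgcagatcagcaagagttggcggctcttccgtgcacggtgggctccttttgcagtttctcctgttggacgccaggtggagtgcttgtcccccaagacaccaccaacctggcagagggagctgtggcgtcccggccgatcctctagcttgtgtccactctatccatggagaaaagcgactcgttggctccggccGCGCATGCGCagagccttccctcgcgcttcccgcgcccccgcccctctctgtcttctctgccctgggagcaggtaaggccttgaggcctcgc
Cox8a: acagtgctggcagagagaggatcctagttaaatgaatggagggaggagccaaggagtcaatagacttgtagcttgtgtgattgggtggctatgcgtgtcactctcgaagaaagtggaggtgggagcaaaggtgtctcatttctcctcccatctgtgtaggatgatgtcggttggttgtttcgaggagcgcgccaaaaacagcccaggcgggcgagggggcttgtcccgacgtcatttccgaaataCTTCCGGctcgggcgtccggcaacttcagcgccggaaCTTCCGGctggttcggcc
Atp5j2: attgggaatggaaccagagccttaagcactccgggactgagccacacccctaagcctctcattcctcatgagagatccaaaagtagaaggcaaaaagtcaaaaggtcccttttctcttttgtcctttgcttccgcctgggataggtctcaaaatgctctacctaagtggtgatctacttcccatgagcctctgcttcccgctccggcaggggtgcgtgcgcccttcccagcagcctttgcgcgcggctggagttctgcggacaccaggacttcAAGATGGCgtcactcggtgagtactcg

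Genotypes were compared within each class with limma, on log2(mean UMIs per 10000 + 0.5), and p-values were adjusted by Benjamini-Hochberg over all genes tested in the class. Genes with a mean of at least 0.2 UMIs per 10000 were tested, and differences are deleted minus wild type. No member passed an adjusted p of 0.05 in any of the 8 classes. Of all genes tested, limma called 24 of 5491 in malignant-like cells (0.437%), 0 of 5654 in monocyte/macrophage-like cells, 1 of 5130 in the unnamed myeloid cluster (0.0195%), 15 of 3761 in neutrophil-like cells (0.399%), 20 of 5102 in dendritic-like cells (0.392%), 19 of 5592 in T-like cells (0.34%), 5 of 5280 in NK-like cells (0.0947%) and 2 of 5651 in fibroblast-like cells (0.0354%). The smallest adjusted p of a member in each class ran from 0.182 in neutrophil-like cells to 0.867 in the unnamed myeloid cluster. The counts below are therefore those of p under 0.05 before adjustment and of genotypes that did not overlap, each beside the same share over all genes tested. Members are measured in the same libraries, and the mitochondrial ones are cut from long shared RNAs. A count of members is thus not a count of independent results. With a term for the barcode set, limma called 3 mitochondrially encoded members in malignant-like cells and 2 nuclear-encoded members in T-like cells, as given with those classes.

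**Figure D3:**
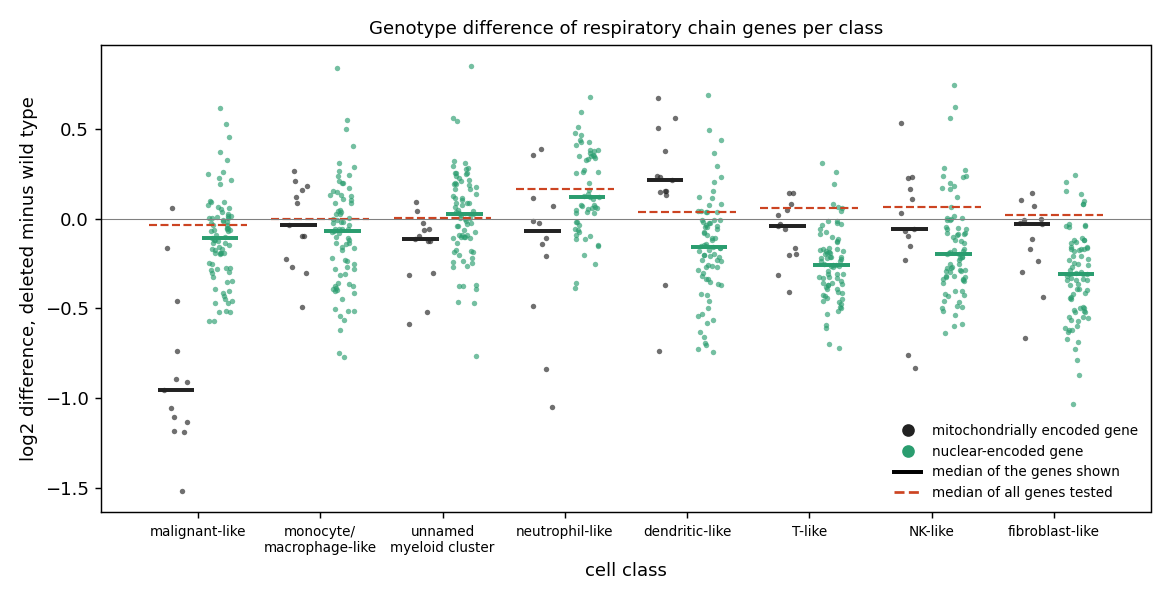
Log2 difference, deleted minus wild type (y axis), of each tested mitochondrially encoded gene (black) and nuclear-encoded gene (green) in 8 classes (x axis), with the median of each set (solid bar) and of all genes tested (dashed line). The black points of malignant-like cells center on -0.95, and the green points of T-like and fibroblast-like cells lie mostly below 0, with medians of -0.26 and -0.31.

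In malignant-like cells, mitochondrially encoded genes were lower in deleted hosts as a group, and nuclear-encoded genes were close to level. Summed over the 13 genes, the level was 536, 671, 587 and 439 UMIs per 10000 for libraries 1, 2, 5 and 6 (wild type), against 368, 275, 233 and 367 for libraries 3, 4, 7 and 8 (deleted). Every deleted library lay below every wild-type library, at a mean of 311 ± 67.9 against 558 ± 96.9 (SD, n = 4 each), a ratio of 0.556. Within the barcode sets the difference was -282 in libraries 1 to 4 and -213 in libraries 5 to 8. Summed over the nuclear-encoded genes, the same cells held 183, 226, 255 and 262 under wild-type hosts, against 182, 179, 226 and 251 under deleted hosts. These overlapped, with a ratio of 0.906. The log2 ratio of the mitochondrial to the nuclear sum was 1.27 ± 0.39 in wild-type and 0.56 ± 0.40 in deleted libraries (SD, n = 4 each), with overlap. Per cell, the 10th percentile of the mitochondrial share was 1.596% to 3.29% under wild-type and 0.0401% to 0.322% under deleted hosts. Medians did not overlap either (4.19% to 6.83% and 1.18% to 2.9998%), while 90th percentiles did (6.52% to 9.84% and 4.38% to 8.24%). In library 8, 9.91% of these cells held no mitochondrial UMI, against at most 2.17% in any other library. The part of such cells in the lower sums was not tested.

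Of the 13 mitochondrially encoded genes, 12 had a difference below 0 in malignant-like cells and 7 had p under 0.05 before adjustment in limma, against 7.23% of all 5491 genes tested in that direction. Leaving out library 4 or library 7 left 4 at that threshold, and leaving out any other left 5 to 7. Their median log2 difference was -0.95, against -0.04 for all genes tested. No call was made after adjustment (limma), and the 13 genes share libraries and long RNAs, so they are not 13 separate results. Genotypes did not overlap for 3 of the 13 (mt-Co2, mt-Cytb and mt-Nd5), all lower, against 5.45% of all genes tested. Within each barcode set taken alone, both deleted libraries lay below both wild-type libraries for 9 of the 13, against 10.7% of all genes tested. Of the 80 nuclear-encoded members, 10 were lower and 1 higher by this measure, against 10.7% and 3.55% of all genes.

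By complex, the catalytic core of complex IV is encoded by mt-Co1, mt-Co2 and mt-Co3. mt-Co2 (ENSMUSG00000064354, chrM 7013 to 7696) stood at 90.02, 113, 108 and 92.2 UMIs per 10000 for libraries 1, 2, 5 and 6 (wild type), against 65.9, 48.7, 37.9 and 66.2 for libraries 3, 4, 7 and 8 (deleted). The log2 difference was -0.91 (SE 0.32, adjusted p = 0.323), with every deleted library lower. mt-Co3 stood at 95.001, 137, 53.7 and 39.0 under wild-type hosts, against 61.9, 43.0, 20.4 and 26.2 under deleted hosts. It was lower by a log2 difference of -1.05 (SE 0.46, adjusted p = 0.470 in limma), and the genotypes overlapped across the sets but not within either. mt-Co1 stood at 82.3, 79.1, 146 and 84.8 under wild-type hosts, against 71.6, 47.6, 109 and 138 under deleted hosts. The log2 difference of mt-Co1 was -0.16 (SE 0.39, adjusted p = 0.941 in limma), and the genotypes overlapped.

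mt-Cytb (ENSMUSG00000064370, chrM 14145 to 15288), the only mitochondrial subunit of complex III, stood at 25.3, 32.7, 53.3 and 50.6 UMIs per 10000 under wild-type hosts, against 21.2, 15.6, 9.57 and 24.6 under deleted hosts. The log2 difference was -1.18 (SE 0.38, adjusted p = 0.286). Every deleted library was lower, with library 8 at 24.6 and wild-type library 1 at 25.3 nearly touching. Of the complex V genes, mt-Atp6 stood at 124, 165, 34.3 and 16.6 under wild-type hosts, against 69.0, 55.8, 13.8 and 17.8 under deleted hosts. mt-Atp8 stood at 4.66, 5.63, 66.1 and 66.3 under wild-type hosts, against 2.72, 2.64, 17.4 and 33.2 under deleted hosts. Both overlapped across the sets but, for mt-Atp8, not within either set, and their log2 differences were -0.89 and -1.13 (adjusted p = 0.748 and 0.770 in limma).

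Complex I has 7 mitochondrial subunits, which form its membrane arm. mt-Nd1 stood at 39.1, 45.2, 34.5 and 19.3 UMIs per 10000 under wild-type hosts, against 21.7, 17.1, 6.79 and 15.6 under deleted hosts, a log2 difference of -1.19 (SE 0.40, adjusted p = 0.305 in limma). mt-Nd5 stood at 5.92, 6.76, 9.64 and 7.18 under wild-type hosts, against 5.51, 3.65, 2.46 and 5.86 under deleted hosts, a log2 difference of -0.74 (SE 0.30, adjusted p = 0.424). For mt-Nd5 every deleted library was lower, but library 8 (5.86) and wild-type library 1 (5.92) were nearly equal. mt-Nd4l, the smallest of the 7, stood at 5.84, 9.06, 27.3 and 36.6 under wild-type hosts, against 2.90, 2.19, 5.55 and 16.3 under deleted hosts. Its log2 difference of -1.52 (SE 0.63, adjusted p = 0.434 in limma) was the most negative of the 13. mt-Nd2 (-1.10, adjusted p = 0.358), mt-Nd4 (-0.95, adjusted p = 0.558) and mt-Nd3 (-0.46, adjusted p = 0.927) were lower in their means with overlap. mt-Nd6 stood at 0.306, 0.278, 0.881 and 0.564 under wild-type hosts, against 0.558, 0.151, 0.392 and 1.26 under deleted hosts, a log2 difference of 0.06 with overlap.

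**Figure D4:**
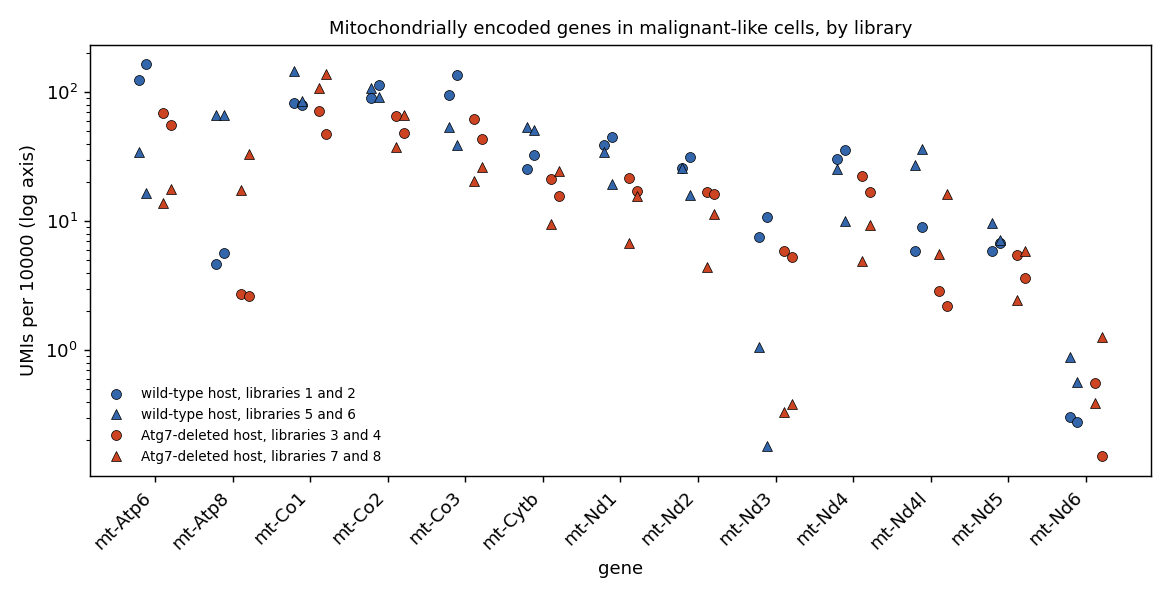
UMIs per 10000 (y axis, log scale) of the 13 mitochondrially encoded genes (x axis) in malignant-like cells, 1 point per library, colored by genotype, with circles for libraries 1 to 4 and triangles for libraries 5 to 8. mt-Co2, mt-Cytb and mt-Nd5 separate the genotypes, while mt-Atp6, mt-Atp8 and mt-Nd3 separate the sets.

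With a term for the barcode set, 3 mitochondrially encoded genes fell in malignant-like cells of deleted hosts: mt-Nd4l (adjusted p = 0.022), mt-Atp8 and mt-Co3 (adjusted p = 0.0350 each in limma), in a fit that called 1.15% of all genes lower. When the deposited log values were averaged in place of UMIs per 10000, limma called 13 members lower, 7 mitochondrial (mt-Co2, mt-Co3, mt-Cytb, mt-Nd1, mt-Nd2, mt-Nd4 and mt-Nd5) and 6 nuclear (Atp5c1, Atp5g1, Ndufa4, Ndufb2, Ndufs8 and Sdhb). In that fit 11.9% of all genes were called lower, so the share called was high throughout. The mean of log values depends on the depth of each cell.

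Several other measures moved with genotype in the malignant-like class. Malignant-like cells made up 60.2 ± 10.4% of the cells in wild-type and 5.31 ± 4.63% in deleted libraries (SD, n = 4 each, two-sided exact permutation p = 0.0286, the smallest this design allows, adjusted p = 0.0762 over 8 classes). They numbered 1389 to 4432 per wild-type library and 46 (library 3) to 161 per deleted library. Their median UMIs per cell were 13919 ± 3133 and 6152 ± 5969 (exact permutation p = 0.0857, adjusted p = 0.457). The cluster that held most malignant-like cells of deleted hosts, looked at apart after the data were seen, had lower median UMIs than the remaining malignant-like cells in every library. It held 53.4% of the malignant-like cells of deleted hosts (228 of 427) and 14.8% of those of wild-type hosts (1578 of 10669).

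Within that cluster alone, the mitochondrial sum was 379, 508, 561 and 472 UMIs per 10000 under wild-type hosts, against 231, 200.0 and 303 under deleted hosts 4, 7 and 8, again without overlap. Library 3 had too few such cells. Outside it, the sum was 563, 686, 593 and 436 under wild-type hosts, against 398, 343, 261 and 463 under deleted hosts, with deleted library 8 above wild-type library 6. The median difference of the 13 genes outside it was -0.74, with 1 of 13 at p under 0.05 before adjustment. In cells of 1000 to 5000 UMIs, the sum was lower in the 3 deleted libraries with enough cells (202 to 322) than in the wild-type libraries (359 to 679). When UMIs were summed over the class before scaling, deleted library 3 (459) stood above wild-type library 6 (418). Wild-type hosts gave 10669 malignant-like cells and deleted hosts 427. Malignant-like clusters of 2874, 585 and 1619 cells came almost wholly from wild-type hosts, as did the class itself. Among the genes leading the clusters of 585 and 1619 cells over all other cells were the cell cycle genes Top2a and Cenpf. The mitochondrial share of UMIs in these clusters was 7.1% and 5.01%, against 4.17% to 5.86% in the other malignant-like clusters. The clusters of 585 and 1619 cells were part of the comparison outside the low-depth cluster, and their part in the genotype difference was not tested.

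The summed level of the 10 malignant markers, of which 8 were listed, was also lower in deleted hosts without overlap (20.3 to 28.3 against 29.3 to 41.9 UMIs per 10000). The 7 fibroblast markers summed to 20.97 in library 3, 9.65 in library 4 and 0.823 to 3.37 in the other 6. The 11 monocyte/macrophage markers summed to 10.5, 13.5 and 13.8 in libraries 1, 3 and 4 and to 0.216 to 3.41 elsewhere, and the 6 B cell markers summed to 27.7 in library 8. The part of the class share, depth, cluster makeup and RNA of other cell types in the mitochondrial result was not tested.

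Among the 80 nuclear-encoded members tested in malignant-like cells, 25 had a difference above 0 and 55 below 0, with a median of -0.11. At p under 0.05 before adjustment, 2 were lower and 1 was higher, against 7.23% and 2.71% of all genes tested, and none was without overlap, against 5.45% (lower) and 1.2% (higher) of all genes. Ndufa3, an accessory subunit of complex I (ENSMUSG00000035674, mm10 chromosome 7, 3617373 to 3620327), was the higher one. It stood at 0.925, 1.22, 1.48 and 1.01 UMIs per 10000 under wild-type hosts, against 2.12, 1.36, 2.22 and 2.57 under deleted hosts, a log2 difference of 0.62 (SE 0.22, adjusted p = 0.323 in limma). Only deleted library 4 reached into the wild-type range. Atp5g1, which encodes subunit c of complex V, stood at 2.66, 4.24, 3.86 and 4.07 under wild-type hosts, against 2.06, 1.64, 2.97 and 2.76 under deleted hosts. Its log2 difference was -0.57 (SE 0.25, adjusted p = 0.461). Ndufa3 was named here after its values were seen. By complex, the ratio of the nuclear sums was 0.983 for complex I, 0.945 for complex II, 0.861 for complex III, 0.892 for complex IV and 0.869 for complex V, all with overlap.

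In the 7 host classes compared, the summed levels of the mitochondrially encoded genes overlapped between genotypes. In monocyte/macrophage-like cells, the largest host class, their sum was 293, 340.0 and 366 UMIs per 10000 for libraries 1, 2 and 6 (wild type), against 482, 324, 197 and 398 for libraries 3, 4, 7 and 8 (deleted). The deleted libraries lay on both sides of the wild-type ones. Wild-type library 5 had 16 such cells and was left out. Over the 7 host classes, the median difference of the mitochondrially encoded genes ran from -0.12 in the unnamed myeloid cluster to 0.22 in dendritic-like cells. Leaving out 1 library turned the sign of this median in 5 of the 7 classes. In neutrophil-like cells it was -0.07, but -0.54 without library 3 and 0.40 without library 7, and in monocyte/macrophage-like cells it was -0.04, but -0.25 without library 3 and 0.23 without library 7. Leaving out each library gave -0.27 to 0.12 in fibroblast-like, -0.18 to 0.10 in NK-like and -0.21 to 0.03 in T-like cells. None of the mitochondrially encoded genes had p under 0.05 before adjustment in any host class, where 1.95% to 5.25% of all genes were lower and 2.95% to 13.2% higher at that threshold. None separated the genotypes, against 1.85% to 5% (lower) and 2.05% to 8.48% (higher) of all genes. With 13 genes or fewer in a class, counts of 0 lie near these shares. Leaving out 1 library brought at most 2 of them to p under 0.05 in the lower direction in any host class (neutrophil-like without library 1 or 8, NK-like without library 2). mt-Atp8 (-0.16 to -1.05) and mt-Nd4l (-0.37 to -0.84) had a negative difference in all 7 host classes, with p of 0.12 or above in limma, and both are among the genes that differ most between barcode sets.

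The difference between host and malignant-like cells was tested on the within-library difference of log2 levels. For monocyte/macrophage-like minus malignant-like cells, limma called 0 members and 0 of 4269 genes. All 13 mitochondrially encoded genes had a positive value, with a median of 0.88 against 0.03 over all genes, and 8 of them had p under 0.05 before adjustment and 4 were without overlap (3.09% and 3.65% of all genes in that direction). The count of 8 was 2 without library 1, 1 without library 2 and 5 without library 3. For the unnamed myeloid cluster minus malignant-like cells, 12 of 13 were positive, with a median of 0.77, 7 at p under 0.05 before adjustment and 6 without overlap (5% and 3.82% of all 4004 genes in that direction); 0.05% of all genes passed after adjustment. The median of the nuclear-encoded members was 0.00 and 0.14 in these fits. No member passed the adjusted threshold in either fit, so a difference between the classes was not shown for any single gene. These 2 comparisons share the malignant-like values, and the makeup of the monocyte/macrophage-like class differed between libraries.

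T-like cells of deleted hosts had lower nuclear-encoded levels in their means. The sum was 192, 209, 207 and 247 UMIs per 10000 for libraries 1, 2, 5 and 6 (wild type), against 152, 141, 176 and 200.8 for libraries 3, 4, 7 and 8 (deleted). Deleted library 8 reached above wild-type library 1, so the genotypes overlapped, while within each barcode set both deleted libraries were lower. The mitochondrial sum was 455, 497, 521 and 342 under wild-type hosts, against 452, 420.0, 416 and 389 under deleted hosts, with overlap. Of the 77 nuclear-encoded members tested, 70 had a difference below 0, with a median of -0.26 against 0.06 over all genes. At p under 0.05 before adjustment, 13 were lower and 0 higher (4.35% and 10% of all genes tested), and 7 were lower and 0 higher without overlap (2.79% and 5.72% of all genes). The count of 13 was 24 without library 5, 5 without library 4, 6 without library 6 and 8 without library 7. Within each barcode set taken alone, 18 of the 77 were lower without overlap (23.4%, against 6.12% of all genes) and 2 were higher (11.9% of all genes).

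By complex, the T-like sums that separated the genotypes were those of complex II and complex V. Complex V summed to 61.2, 69.0, 61.2 and 75.4 UMIs per 10000 under wild-type hosts, against 48.0, 44.7, 55.4 and 59.5 under deleted hosts. Complex II summed to 3.85, 3.76, 3.19 and 3.80 under wild-type hosts, against 3.05, 2.60, 2.29 and 2.89 under deleted hosts. The ratios of the means were 0.778 and 0.742, against 0.792 for complex I, 0.834 for complex III and 0.756 for complex IV.

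Cox5a, a nuclear subunit of complex IV (ENSMUSG00000000088, mm10 chromosome 9, 57521274 to 57532426), stood in T-like cells at 5.04, 5.01, 2.92 and 5.65 UMIs per 10000 under wild-type hosts, against 2.86, 2.61, 2.29 and 2.69 under deleted hosts. The log2 difference was -0.70 (SE 0.21, adjusted p = 0.186). Every deleted library was lower, and wild-type library 5 lay close to them. With a term for the barcode set, Cox5a fell (adjusted p = 0.0475 in limma), as did Cox8a (adjusted p = 0.0344), in a fit that called 1.27% of all genes lower.

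Cox8a stood in T-like cells at 11.6, 12.1, 13.7 and 15.4 under wild-type hosts, against 5.55, 5.77, 9.34 and 12.0 under deleted hosts. It overlapped across the sets. Atp5h, a peripheral stalk subunit of complex V, stood at 7.53, 8.59, 5.56 and 8.26 under wild-type hosts, against 5.54, 4.82, 4.59 and 4.97 under deleted hosts (log2 difference -0.53, SE 0.20, adjusted p = 0.275 in limma). Its highest deleted library (5.54) and lowest wild-type library (5.56) were almost equal. Ndufb7, an accessory subunit of complex I, stood at 2.86, 2.79, 3.03 and 4.11 under wild-type hosts, against 1.96, 1.71, 1.93 and 2.75 under deleted hosts (log2 difference -0.52, SE 0.19, adjusted p = 0.256).

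Other RNA moved in T-like cells too. Genes with ribosomal protein symbols had a median difference of -0.14, with 0 of 89 called. These symbols (Rpl, Rps or Rplp) also take genes such as Rps6ka1 and Rps19bp1, which encode other proteins. A list of 10 genes that dissociation can induce had a median of 1.06, with 9 at p under 0.05 before adjustment in limma. It joined immediate early genes with the heat shock genes Hspa1a and Hspa1b. Fosb, an immediate early gene, rose from 0.895 to 3.13 UMIs per 10000 (log2 difference 1.45, adjusted p = 0.0481 in limma). Deleted library 3 held red cell RNA (16.7 UMIs per 10000, 0 to 0.633 in the other 7) and fibroblast marker RNA (17.6, 0.0300 to 4.88 in the other 7) in its T-like cells. The makeup of the class differed too. A cluster led by Cd8b1 and Cd8a held 40 of 58, 226 of 366, 309 of 438 and 335 of 507 cells under wild-type hosts. Under deleted hosts it held 54 of 186, 119 of 301, 41 of 140 and 235 of 641. A cluster led by Tnfrsf4 and Cd4 held 8, 51, 57 and 64 under wild-type hosts, against 82, 89, 83 and 249 under deleted hosts. The part of these measures in the nuclear-encoded result was not tested. Median UMIs per T-like cell were 2840 ± 1140 in wild-type and 3123 ± 1193 in deleted libraries (SD, n = 4 each, exact permutation p = 0.743).

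Fibroblast-like cells gave a like picture. The nuclear sum was 116, 177, 184 and 232 UMIs per 10000 for libraries 1, 2, 5 and 6 (wild type), against 108, 109.8, 128 and 163 for libraries 3, 4, 7 and 8 (deleted). These overlapped, with wild-type library 1 among the deleted ones. The mitochondrial sum was 672, 439, 409 and 306 under wild-type hosts, against 445, 517, 349.6 and 374 under deleted hosts, with overlap. Of the 79 nuclear-encoded members tested, 72 had a difference below 0 (median -0.31 against 0.02 over all genes). At p under 0.05 before adjustment, 12 were lower and 0 higher (4.62% and 7.11% of all genes), and 5 were lower and 0 higher without overlap (3.11% and 3.84%). The count of 12 was 29 without library 1, 2 without library 6, 4 without library 3, and 5 without library 2, 4 or 7. Within each barcode set, 20 were lower and 0 higher without overlap (25.3%, against 6.35% and 9.01% of all genes).

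In fibroblast-like cells Cox5a stood at 1.69, 3.05, 1.66 and 3.64 UMIs per 10000 under wild-type hosts, against 1.33, 1.35, 0.915 and 1.45 under deleted hosts. Its log2 difference was -0.72 (SE 0.26, adjusted p = 0.314 in limma), with every deleted library lower. Ndufa13, a complex I subunit also known as GRIM-19, stood at 2.37, 3.36, 2.30 and 3.79 under wild-type hosts, against 1.85, 1.76, 1.21 and 2.14 under deleted hosts (log2 difference -0.62, SE 0.24, adjusted p = 0.363). Cox6a1, the form of this complex IV subunit found outside muscle, stood at 4.02, 4.14, 4.601 and 6.87 under wild-type hosts, against 3.01, 4.01, 2.45 and 2.98 under deleted hosts (log2 difference -0.57, SE 0.27, adjusted p = 0.428). Genes with ribosomal protein symbols, taken as above, had a median difference of -0.31 in the same cells, equal to that of the nuclear-encoded members. Their part in the result was not tested. The number of cells ran from 33 to 63 in wild-type and from 78 to 938 in deleted libraries.

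NK-like and dendritic-like cells had medians of -0.20 and -0.16 for the nuclear-encoded members (0.06 and 0.04 over all genes), with 61 of 78 and 60 of 77 below 0. In dendritic-like cells 7 of the 77 were lower and 0 higher at p under 0.05 before adjustment (5.25% and 6.76% of all genes), and 5 were lower and 1 higher without overlap (5% and 6.78%). The count of 7 was 0 without library 6, 1 without library 3 and 11 without library 8. At p under 0.05 before adjustment, in NK-like cells 1 of 78 was lower and 2 were higher (1.95% and 4.83%), and 3 were lower and 1 higher without overlap (2.5% and 4.87%). The count of 1 lower was 9 without library 5 and 5 without library 8. Ndufb6, an accessory complex I subunit, stood in dendritic-like cells at 1.24, 1.86 and 2.103 UMIs per 10000 for libraries 2, 5 and 6 (wild type), against 0.640, 0.864, 1.06 and 1.06 for libraries 3, 4, 7 and 8 (deleted). The log2 difference was -0.66 (SE 0.23, adjusted p = 0.276 in limma), without overlap. Ndufa7 (-0.56, adjusted p = 0.398) and Ndufs5 (-0.54, adjusted p = 0.319), both of complex I, were lower without overlap in the same cells. In NK-like cells the 3 largest differences without overlap were Ndufa11 (-0.59, adjusted p = 0.713), Ndufb9 (-0.40, adjusted p = 0.780) and Atp5g1 (-0.34, adjusted p = 0.807). Wild-type library 1 had 18 dendritic-like and 4 NK-like cells and was left out of both. Library 3 had 25 NK-like cells, the fewest that entered.

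Neutrophil-like cells went the other way. Their nuclear sum was 52.9, 59.3, 60.8 and 53.6 UMIs per 10000 under wild-type hosts, against 67.6, 62.0, 70.6 and 62.0 under deleted hosts, higher in every deleted library (56.6 ± 3.99 and 65.6 ± 4.27, SD, n = 4 each). Complex I alone gave 11.9, 14.4, 13.5 and 13.1 under wild-type hosts, against 16.8, 18.1, 19.3 and 16.6 under deleted hosts. All genes tested were shifted in the same direction: the median difference was 0.12 for the 58 nuclear-encoded members tested and 0.17 for all 3761 genes. At p under 0.05 before adjustment 4 of the 58 were higher and 0 lower (13.2% and 3.78% of all genes), and 4 were higher and 0 lower without overlap (8.48% and 2.31%), so both shares were below or near those of all genes.

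Ndufc1, a small complex I subunit, stood in neutrophil-like cells at 0, 0.208, 0.163 and 0.174 UMIs per 10000 under wild-type hosts, against 0.376, 0.631, 0.712 and 0.358 under deleted hosts (log2 difference 0.68, SE 0.22, adjusted p = 0.182 in limma). Ndufa3 stood at 0.527, 0.668, 0.820 and 0.504 under wild-type hosts, against 0.876, 0.911, 2.05 and 1.18 under deleted hosts (log2 difference 0.60, SE 0.26, adjusted p = 0.260). Uqcr11 of complex III was higher by 0.51 (SE 0.21, adjusted p = 0.240), also without overlap. The level of a gene in these cells rests on few UMIs, with 39 cells in library 7.

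In monocyte/macrophage-like cells Ndufa3 stood at 1.51, 1.51 and 1.02 for libraries 1, 2 and 6 (wild type), against 2.13, 2.13, 2.12 and 2.34 for libraries 3, 4, 7 and 8 (deleted) (log2 difference 0.55, SE 0.23, adjusted p = 0.817 in limma). Ndufa3 was thus higher in every deleted library in monocyte/macrophage-like and neutrophil-like cells and in 3 of 4 in malignant-like cells. These classes share the same 8 libraries. It was named in the monocyte/macrophage-like and neutrophil-like classes because its genotypes did not overlap there, and in malignant-like cells after its values were seen. The likeness of these classes is thus partly set by that choice, and its values in the other classes are not given here. Ndufa2 of complex I was higher without overlap (log2 difference 0.40, adjusted p = 0.817), and Atp5j2 of complex V was lower without overlap (log2 difference -0.54, adjusted p = 0.817). In all, 2 of the 77 nuclear-encoded members tested were higher and 2 lower without overlap (4.93% and 4.65% of all genes), and 2 were higher and 0 lower at p under 0.05 before adjustment (2.95% and 2.64%). In the unnamed myeloid cluster, Sdhb (-0.47, adjusted p = 0.927) and Atp5d, the delta subunit of complex V (-0.47, adjusted p = 0.918), were lower without overlap, 2 of 76 members, with 0 higher (1.85% and 2.05% of all genes). At p under 0.05 before adjustment 3 were higher and 1 lower (3.02% and 2.2%). Sdhb stood there at 1.41, 1.53, 1.04 and 1.09 UMIs per 10000 under wild-type hosts, against 0.264, 0.949, 1.02 and 1.02 under deleted hosts, with library 3 far below the rest.

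Other genes of mitochondrial function were read from lists. No gene of these lists passed the adjusted threshold in any class, in either direction, apart from Fosb of the immediate early genes in T-like cells. In malignant-like cells the lists had medians of -0.12 for 69 mitochondrial ribosome genes (6 lower and 0 higher at p under 0.05 before adjustment, against 7.23% and 2.71% of all genes), -0.17 for 14 genes of the tricarboxylic acid cycle (1 lower), -0.27 for 20 genes of the mitochondrial membrane and import (3 lower), -0.24 for 6 mitophagy genes (2 lower) and -0.02 for 5 genes that copy and maintain mitochondrial DNA and RNA (0 of 5). Of 5 regulators of respiratory genes 1 was lower at p under 0.05 before adjustment; this was Myc, at 1.16 ± 0.609 in wild-type and 0.377 ± 0.112 in deleted libraries (SD, n = 4 each, adjusted p = 0.214 in limma). Bnip3l, a mitophagy receptor, had 3.11 ± 0.539 and 1.77 ± 0.419 (adjusted p = 0.305), and Vdac1, the outer membrane channel, 2.62 ± 0.331 and 1.66 ± 0.281 (adjusted p = 0.369). In the opposite direction Ucp2, an inner membrane carrier, had 0.206 ± 0.0545 and 0.639 ± 0.192 (adjusted p = 0.108). These 4 were without overlap and were named after their values were seen.

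In T-like cells 15 of 61 mitochondrial ribosome genes were lower and 1 higher at p under 0.05 before adjustment (4.35% and 10% of all genes), with a median of -0.17, and in fibroblast-like cells 10 of 59 were lower and 0 higher (4.62% and 7.11%), with a median of -0.23. Tmem126a, a complex I assembly factor outside the rule, was the only gene of its list that was tested. It had 0.564 ± 0.149 UMIs per 10000 in wild-type and 0.250 ± 0.0489 in deleted libraries in T-like cells (log2 difference -0.50, adjusted p = 0.126 in limma). In fibroblast-like cells it had 0.573 ± 0.197 and 0.226 ± 0.0756 (log2 difference -0.55, adjusted p = 0.248; SD, n = 4 each). It was without overlap in both.

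Several members come as pairs of genes for one position in a complex, of which one form is known from particular tissues. Cox7b2, the second form of Cox7b, was found almost only in malignant-like cells. Its mean there was 0.180 UMIs per 10000 (3350 UMIs), with 0.0655 to 0.265 across the 8 libraries. In the other classes its mean was 0 to 0.0121 UMIs per 10000 (0 to 11 UMIs in each, from far fewer UMIs in all). Ndufa4l2, a paralog of the complex IV subunit Ndufa4 known to be induced in low oxygen, was highest in fibroblast-like cells at a mean of 1.77, against 0.00643 (dendritic-like) to 0.231 (skeletal-muscle-like, 1 UMI) in the other classes. In fibroblast-like cells Ndufa4l2 stood at 1.13, 1.82, 2.58 and 3.71 under wild-type hosts, against 0.579, 0.437, 3.29 and 0.636 under deleted hosts (log2 difference -0.87, SE 0.42, adjusted p = 0.435 in limma). Deleted library 7 lay among the wild-type libraries, and the other 3 lay below all of them. Cox4i2 (0 to 0.0905 across classes) and Cox6b2 (0 to 0.0659) were scarce everywhere, while Cox4i1 and Cox6b1 stood at 2.35 to 13.9 and 1.52 to 8.27. Of the 3 genes for subunit c, Atp5g2 was at 7.80 in malignant-like and at 0.470 in neutrophil-like cells, and Atp5g1 at 3.03 and 0.367.

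**Figure D5:**
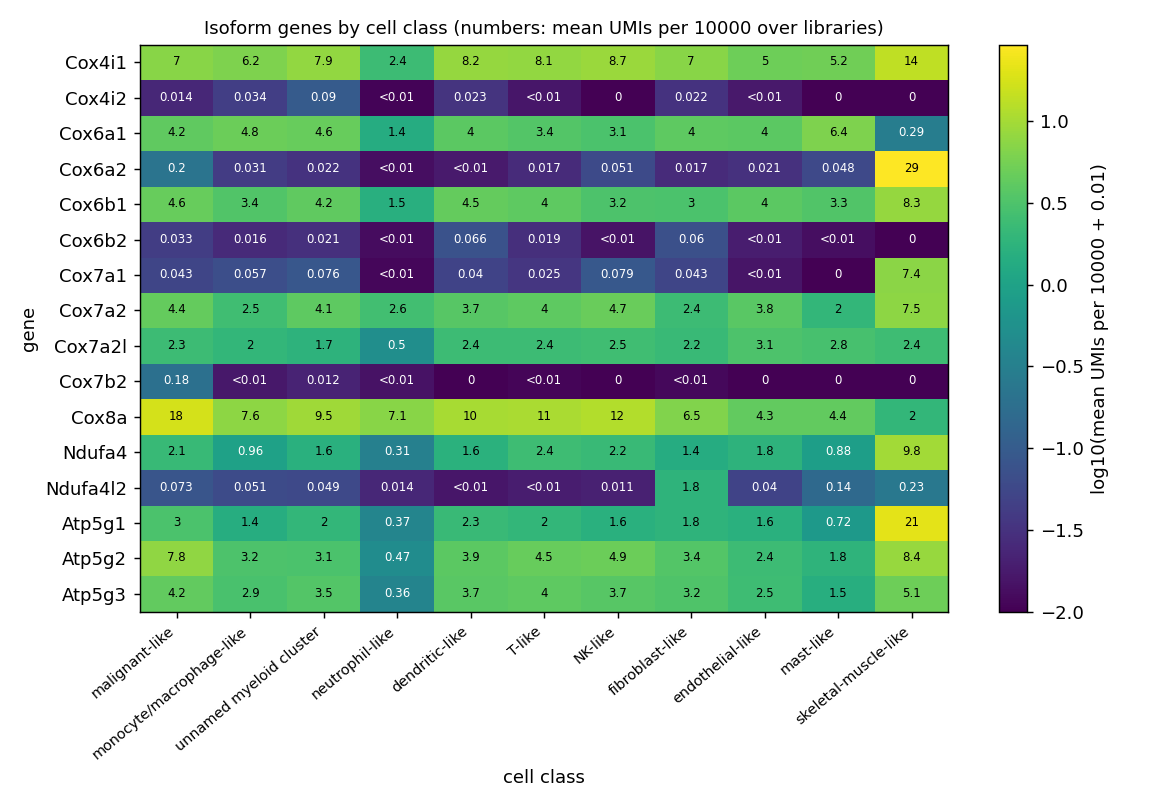
Mean UMIs per 10000 over libraries (numbers, with color on a log scale) of 16 members that are forms of one subunit (y axis) in 11 cell classes (x axis). Cox6a2, Cox7a1 and Atp5g1 are highest in skeletal-muscle-like cells, Cox7b2 in malignant-like cells and Ndufa4l2 in fibroblast-like cells.

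A cluster of 52 skeletal-muscle-like cells, 47 of them in deleted library 3, had its own makeup of the chain. Cox6a2, the muscle form, stood there at 29.3 UMIs per 10000 and at 0 to 0.0951 in the other 10 classes of the same library, while Cox6a1 stood at 0.287 against 2.96 to 6.68. Cox7a1, also a muscle form, stood at 7.41 and at 0 to 0.0651 in the other classes. Cox8a stood at 1.98, the lowest of the 11 classes, and Cox8b, its muscle form, which the rule did not take, at 18.8. Atp5g1 stood at 21.2 against 0.753 to 2.06.

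In the 47 cells of library 3, nuclear-encoded members summed to 636 UMIs per 10000 and mitochondrially encoded members to 64.0, a log2 ratio of -3.31. Counted over these cells together, 14696 of 214669 UMIs were nuclear-encoded members (685 per 10000, exact 95% Poisson interval 674 to 696) and 801 were mitochondrially encoded members (37.3 per 10000, 34.8 to 40.0), intervals that cover counting error only. Of 80 nuclear-encoded members compared across the 11 classes, 73 were highest in these cells, against 11.2% of all genes, and 11 of the 13 mitochondrially encoded genes were lowest there, against 37% of all genes. The median of these cells was 1905 UMIs and 733 genes, with a mitochondrial share of 0.181% (10th to 90th percentile 0.0417% to 1.95%). Whether they are whole cells was not tested, so the ratio may not be that of intact muscle. With 1 library there is no test. Cells of 20% or more mitochondrial UMIs are not among the deposited cells, which limits high values of the mitochondrial share in every class.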

How the data were processed

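Single-cell libraries of 8 tumors were measured with a 10x 5' kit, per the labels' protocols. Per the submitters' processing notes, mm10, Cell Ranger 2.1 and Seurat 3.0 were used. The deposited matrices hold, for each gene and cell, the natural log of 1 plus UMIs per 10000 UMIs of that cell, a scaling done by the authors; this was read from the values, since 100% of them gave whole UMIs within 0.01 when it was undone. Where reads of overlapping genes were assigned is not given in the sources used here. No column of per-sample values was left out (0).

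Cells were clustered with scanpy 1.11.5 and igraph 0.11.9 (2000 variable genes, 30 principal components, 15 neighbours, Leiden resolution 1, seed 1) without the 103 genes. Clusters were named from markers, at least 3 of them in 10% of the cells, and a cluster whose leading genes went against its name stayed unnamed. The score that ranks the marker lists was revised after the cluster tables had been seen and before the genotypes were compared. The doublet caller marked 114 cells (0.386%), below the rate of 5% given to it, so doublets may remain unmarked, and all were kept. It marked 10.99% of a malignant-like cluster of 455 cells and 11.54% of one of 104 cells. Among the genes leading these clusters over all other cells were Retnla and Mgl2 in the first and Xcl1 and Cd8a in the second. Whether they hold mixed cells was not tested. Without the marked cells, the median difference of the mitochondrially encoded genes in malignant-like cells was -0.95.

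Mean UMIs per 10000 over the cells of a class were taken in each library with at least 20 such cells, in classes with at least 3 libraries per genotype. Levels plus a pseudocount of 0.5 were put on the log2 scale, which understates the change of low genes, and genotypes were compared with limma 3.58.1 (R 4.3.3, trend) for genes with a mean of at least 0.2, with Benjamini-Hochberg adjustment over all genes tested in the class. Single values were compared with two-sided exact permutation tests (scipy 1.17.1), whose smallest p is 0.0286 for 4 libraries against 4 and 0.0571 for 3 against 4. The fitting code was tested on simulated data. Named by rule were all mitochondrially encoded members, nuclear-encoded members past the threshold or else the 3 largest differences without overlap in a class, forms of one subunit, and the 2 most abundant nuclear-encoded members of each complex; members named outside the rule are said to be so. The members and lists were chosen with earlier results of these data known. Alternatives are given in the closing section.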

Additional observations from a re-analysis of the deposited data

Results flagged for a closer look

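In 87 groups of 4 libraries, 7 values lay far from the other 3 of their group, where chance gives about 1 group in 20. In malignant-like cells of wild-type hosts, mt-Co1 was 145.8 UMIs per 10000 in library 5 and 79.1 to 84.76 in the others. Among deleted hosts, Ndufa3 was 2.337 in monocyte/macrophage-like cells of library 8 (others 2.115 to 2.133), and Atp5j2 was 0.6519 in those of library 7 (others 2.076 to 2.335). Sdhb was 0.2636 in the unnamed myeloid cluster of library 3 (others 0.9489 to 1.025), and Uqcr11 was 0.3461 in neutrophil-like cells of library 4 (others 0.5795 to 0.6013). Ndufa11 was 0.8224 in NK-like cells of library 4 (others 1.059 to 1.105), and Ndufa4l2 was 3.285 in fibroblast-like cells of library 7 (others 0.4375 to 0.6363).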

How the results depend on the processing

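The number of members called stayed at 0 in every class under each alternative run, leaving out each library in turn included, with 3 exceptions. In malignant-like cells limma called 13 members with the mean of log values and 3 with a term for the barcode set, and in T-like cells 2 with that term. In the test of the unnamed myeloid cluster minus malignant-like cells, added after the data were seen, 11 were called with the mean of log values. The cause was not tested.

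Counts at p under 0.05 before adjustment moved more when 1 library was left out: over these fits the nuclear-encoded members lower in deleted hosts numbered 0 to 6 in malignant-like, 5 to 24 in T-like, 2 to 29 in fibroblast-like, 0 to 11 in dendritic-like and 0 to 9 in NK-like cells. Those higher numbered 1 to 4 in neutrophil-like cells, 0 to 3 in monocyte/macrophage-like cells and 0 to 3 in the unnamed myeloid cluster.

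The median difference of the mitochondrially encoded genes in malignant-like cells was -1.28 to -0.65 over 16 settings, and that of the nuclear-encoded members was -0.37 to -0.20 in T-like cells (14 settings) and -0.40 to -0.25 in fibroblast-like cells (13 settings). Signs turned for 4 genes, none of which had passed the threshold. For mt-Co1 in malignant-like cells the log2 difference was 0.0115 outside the cluster with most of the deleted hosts' cells (chosen after seeing the data), 0.0783 with summed UMIs, 0.13 with median-ratio scaling, and -0.40 to 0.11 leaving out each library. For mt-Nd3 it was -1.19 to 0.16 leaving out each library. For mt-Nd6 in malignant urothelial (malignant-like) cells it was -0.27 within that cluster, -0.0415 with the mean of log values, and -0.21 to 0.27 leaving out each library. For Sdhb in the unnamed myeloid cluster it was 0.0043 in cells of 1000 to 5000 UMIs.

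No paired analysis was possible because the replicate numbers 1 to 8 are not shared between the genotypes. Few cells limit the precision of several classes: malignant-like cells numbered 46 to 161 per deleted library, NK-like cells 25 to 90, and library 7 held 28 monocyte/macrophage-like and 39 neutrophil-like cells.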

Other observations

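The genes whose pattern was most like that of the summed members were taken over 61 class and library values, centered within each class, among 1342 genes outside the set. For the mitochondrially encoded sum these were Scaf11 (Pearson r = 0.59), Picalm (0.58), Smarca5 (0.56), Neat1 (0.54) and Nop53 (0.54). For the nuclear-encoded sum they were Ppia (0.86), Oaz1 (0.85), Rps10 (0.85), Rpl24 (0.85) and Rpl15 (0.84). The sums of the 2 genomes had r = -0.15 with each other. The values share libraries and depth, so these are descriptions of the libraries.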
